A study of Mus musculus with 18 samples.

Results

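Interferon-stimulated genes were followed in mice whose labels name no infection and no interferon treatment. The set held 8 genes, taken by symbol from the deposited brain, retina and choroid tables: Ifitm2, Ifitm3, Bst2, Stat2, Irf1, Irf7, Isg15 and Ifit3. All 8 were listed in each of the 3 tables, out of 14411 genes listed in at least 1 of them. The study asked how the RNA carried by endothelial ribosomes differs between vascular beds of the central nervous system.

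Every mouse carried Cdh5(PAC)-cre/ERT2+ and NuTRAP+ and was Tam-induced per the labels, so no group lacked the recombinase or the reporter. The Cdh5 promoter, active in vascular endothelium, drives the recombinase, which tamoxifen activates. Recombined NuTRAP cells carry GFP on ribosomal protein L10a, and an antibody to GFP pulls down those ribosomes with the RNA on them, a method called translating ribosome affinity purification. The groups were Choroid Positive, Choroid Input, Retina Positive, Retina Input, Brain Positive and Brain Input, with 3 libraries each. Positive was the RNA eluted from the beads, and Input was a part of the same homogenate set aside before the pull-down. The labels state neither age nor sex, strain background or the number of animals behind a library. A p-value here therefore refers to the spread among the sequenced samples, part of which may be technical.

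Type I interferons bind the receptor pair Ifnar1 and Ifnar2, and the kinases Jak1 and Tyk2 then phosphorylate STAT proteins, Stat2 among them. With Irf9, Stat2 is part of a complex that binds the interferon-stimulated response element in the promoters of antiviral genes, while interferon gamma acts through gamma-activated sequences. Many of these genes keep a low level without infection, held up by small amounts of interferon.

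Ifitm2 (Entrez 80876, chr7:140954837-140959686), Ifitm3 (Entrez 66141, chr7:141009590-141010744) and Irf7 (Entrez 54123, chr7:141263183-141266499) lie near each other on the minus strand of chromosome 7 of GRCm38.p6. Bst2 (Entrez 69550) is at chr8:71534255-71537472 and Isg15 (Entrez 100038882) at chr4:156199424-156200818, both on the minus strand. Stat2 (Entrez 20847) is at chr10:128270498-128292853, Irf1 (Entrez 16362) at chr11:53770014-53778374 and Ifit3 (Entrez 15959) at chr19:34583119-34588982, all 3 on the plus strand. These spans are whole genes with exons and introns, from RefSeq. Ifitm2 and Ifitm3 are close paralogs, and Ifit3 has a near copy in Ifit3b, so estimated counts may be split between copies and single values of these genes are uncertain.

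Promoter windows of 250 bases before to 50 bases after the annotated start were searched for the core of the interferon-stimulated response element, GAAANNGAA, and for the gamma-activated sequence, TTCNNNGAA, on both strands. All 8 genes matched a RefSeq window, and Irf1 had 2 windows. The windows of Ifitm2, Ifit3 and Irf7, and 1 of those of Irf1, are set on an annotated start inside the whole-gene span given above. Positions below are counted from the annotated start of the window and not from the end of the span. The element core was in the windows of 6 of 8 genes, beside 8.56% of all 32851 windows, and the gamma-activated sequence in 3 of 8, beside 8.30%. The stretches shown hold these matches in capitals, 5′ to 3′ on the gene's own strand, and are shown because the 2 patterns are the letters that interferon-driven factors are known to bind. All come from RefSeq on GRCm38.p6.
Isg15: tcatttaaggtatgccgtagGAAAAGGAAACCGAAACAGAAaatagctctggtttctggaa
Bst2: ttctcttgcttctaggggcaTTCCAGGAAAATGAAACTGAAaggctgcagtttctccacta
Ifitm2: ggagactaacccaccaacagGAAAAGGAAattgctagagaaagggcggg
Ifit3: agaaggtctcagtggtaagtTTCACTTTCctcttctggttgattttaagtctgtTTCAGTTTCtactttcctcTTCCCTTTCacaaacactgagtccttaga
Stat2: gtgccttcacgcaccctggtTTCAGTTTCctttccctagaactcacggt
Irf1: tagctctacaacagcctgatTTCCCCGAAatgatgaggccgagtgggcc
The Isg15 stretch covers positions -98 to -38 from the start (chr4:156200856-156200916), and its capitals are 3 overlapping cores in a row. In Bst2, at -156 to -96 (chr8:71537568-71537628), the capitals begin with a gamma-activated sequence that runs into 2 overlapping cores. Ifitm2 held a single core (-66 to -18, chr7:140955979-140956027). Ifit3 held 3 separate cores read on the opposite strand (-175 to -74, chr19:34583354-34583455). Stat2 held 1 core on the opposite strand (-241 to -193, chr10:128270257-128270305). The capitals of Irf1 are a gamma-activated sequence (-110 to -62, chr11:53769904-53769952). Ifitm3 had 2 cores and a gamma-activated sequence, all just after its start, which are not printed. Neither letter pattern was in the Irf7 window. A match is a description of the letters and not evidence that a factor binds there.

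Listed genes summed to 713733 to 2717264 estimated counts in Choroid Positive libraries and 2018126 to 10031274 in Choroid Input. The sums were 12325658 to 26069649 in Retina Positive and 20915469 to 36157140 in Retina Input, and 31111437 to 40112343 in Brain Positive and 28128866 to 43219831 in Brain Input. Pan-endothelial markers passed the test in the direction of Positive at 12 of 12 listed in choroid, 12 of 13 in retina and 13 of 13 in brain. Cdh5, the endothelial cadherin gene whose promoter drives the recombinase, had log2 fold changes of 2.94, 6.63 and 5.11, Positive over Input, in choroid, retina and brain. Retina Positive 3 stood apart, with 438 CPM of Cdh5 against 192 and 221 CPM in Retina Positive 1 and 2. Choroid Positive 2 stood apart as well, with 1071 CPM of Cdh5 against 1573 and 1351 CPM in Choroid Positive 1 and 3. Between replicates, chi-square per degree of freedom over genes was 77.5 and 60.2 for pairs with Retina Positive 3, and 12.1 without it. It was 66.3 and 37.2 for pairs with Choroid Positive 2, and 11.9 without it. CPM here are estimated counts scaled by TMM to 1 library size within a tissue, and later a common scale over all 18 libraries is named where it is used. In whole-tissue RNA and pull-downs alike, fewer cells of a type and less RNA per cell cannot be told apart.

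In choroid 3 of 8 genes rose in Positive over Input, Ifitm2, Ifitm3 and Irf1, and 2 fell, Irf7 and Ifit3. The background was 16.3% of the 7569 choroid genes higher and 20.2% lower at an adjusted p under 0.05 by edgeR's quasi-likelihood test. In retina 7 of 8 rose and Stat2 did not pass, beside 15.3% of 12827 genes higher. In brain the same 7 genes rose, Stat2 again not passing, beside 38.3% of 13957 genes higher. The median log2 fold change of the 8 genes was -0.06 in choroid, 3.15 in retina and 3.81 in brain, where the median over all genes was -0.01, -0.03 and -0.02. A gene entered a table when it reached 50 counts in all libraries of either fraction. Irf7, Stat2, Isg15 and Ifit3 met this in choroid through Input alone, and Ifitm2, Bst2 and Isg15 met it in retina through Positive alone. That rule favours a lower Positive level for the 4 choroid genes and a higher one for the 3 retina genes, so the counts and medians above are a description and no support for a direction. Both choroid genes that fell, and 3 of the 7 retina genes that rose, are among them. Of the genes that met the minimum in both fractions, 3 of 4 rose in choroid, 4 of 5 in retina and 7 of 8 in brain. The matching share over all genes that met it in both fractions was not computed, so these counts too are a description.

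**Figure D1:**
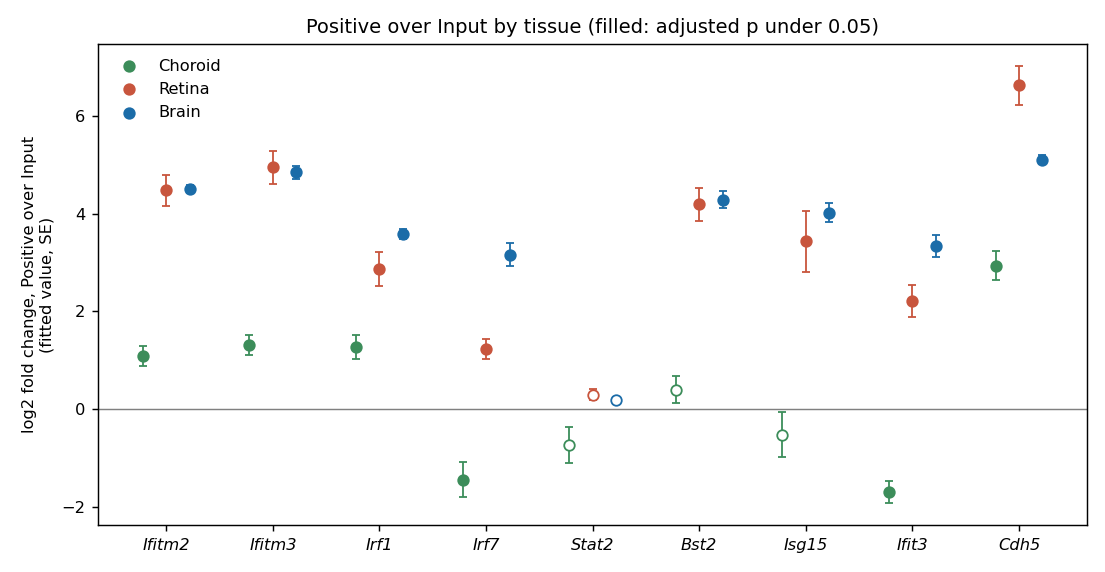
Log2 fold change of Positive over Input (vertical axis, fitted value with its standard error) for the 8 genes and Cdh5 in choroid, retina and brain, 3 libraries a group, with filled points past an adjusted p of 0.05. The choroid points of the 8 genes run from -1.70 to 1.31 and lie below both other tissues for each gene, while Stat2 stays near 0 in retina and brain.

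Ifitm2 and Ifitm3 encode small interferon-induced membrane proteins that block the fusion of entering viruses. In choroid, Ifitm2 had 434, 605 and 427 CPM in Positive, against 246, 229 and 212 CPM in Input. In retina, Ifitm2 had 26.5, 28.7 and 52.1 CPM in Positive, against 1.88, 1.47 and 1.41 CPM in Input. In brain, Ifitm2 had 212, 235 and 202 CPM in Positive, against 9.63, 9.08 and 9.86 CPM in Input. All Positive libraries lay above all Input libraries of their tissue, and Retina Positive 3 was the highest of its group. The log2 fold change of Ifitm2 was 1.09 ± 0.21 (SE, adjusted p = 0.00134, edgeR) in choroid, 4.48 ± 0.31 (adjusted p = 6.92e-05) in retina and 4.51 ± 0.088 (adjusted p = 1.69e-10) in brain. These are 2.13-fold, 22.3-fold and 22.7-fold higher in Positive.

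Ifitm3 was likewise higher in Positive in all 3 tissues. In choroid, Ifitm3 had 528, 665 and 667 CPM in Positive, against 277, 220 and 253 CPM in Input. In retina, Ifitm3 had 106, 126 and 214 CPM in Positive, against 5.27, 3.26 and 6.0 CPM in Input. In brain, Ifitm3 had 411, 420 and 391 CPM in Positive, against 17.7, 12.6 and 12.4 CPM in Input. The fractions did not overlap in any of the 3 tissues. The log2 fold change of Ifitm3 was 1.31 ± 0.20 (SE, adjusted p = 0.000289, edgeR) in choroid, 4.95 ± 0.33 (adjusted p = 6.72e-05) in retina and 4.85 ± 0.14 (adjusted p = 9.16e-10) in brain.

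Bst2 encodes tetherin, a membrane protein that holds budding virus particles on the cell surface. In choroid, Bst2 had 138, 307 and 262 CPM in Positive, against 175, 190 and 166 CPM in Input, and the fractions overlapped, with Positive 1 below every Input library. In retina, Bst2 had 29.4, 36.9 and 62.0 CPM in Positive, against 2.94, 1.72 and 2.30 CPM in Input. In brain, Bst2 had 116, 129 and 104 CPM in Positive, against 7.92, 5.6 and 4.65 CPM in Input. In retina and brain the fractions were far apart. By the fit, the log2 fold change of Bst2 was 0.40 ± 0.27 (SE, adjusted p = 0.274, edgeR) in choroid, 4.19 ± 0.33 (adjusted p = 0.000113) in retina and 4.29 ± 0.17 (adjusted p = 9.16e-09) in brain. Without Choroid Positive 1 the choroid value was 0.68 with an adjusted p of 0.0275, a call that 1 library decides.

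Among the regulators, Stat2, a subunit of the type I interferon complex, did not pass the test in any of the 3 tissues. In choroid, Stat2 had 61.8, 17.5 and 36.5 CPM in Positive, against 61.1, 82.4 and 61.0 CPM in Input. In retina, Stat2 had 59.6, 51.7 and 67.0 CPM in Positive, against 50.2, 48.2 and 47.4 CPM in Input. In brain, Stat2 had 49.9, 46.3 and 54.6 CPM in Positive, against 46.6, 42.5 and 44.6 CPM in Input. The fractions overlapped in choroid and brain and were narrowly apart in retina. The log2 fold change of Stat2 was -0.73 ± 0.37 (SE, adjusted p = 0.143, edgeR) in choroid, 0.29 ± 0.11 (adjusted p = 0.0808) in retina and 0.17 ± 0.078 (adjusted p = 0.0634) in brain. With the homogenate as a replicate block the brain value was 0.17 with an adjusted p of 0.0457, just inside the threshold. Without Brain Input 1 or Brain Positive 2 it also passed, at adjusted p of 0.046 and 0.0319, as it did with the authors' scaling factors (0.23, adjusted p = 0.0177). Retina Stat2 passed without Retina Positive 2 (log2 fold change 0.38, adjusted p = 0.029), and choroid Stat2 passed as lower without Choroid Positive 1 (-1.25, adjusted p = 0.0262).

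Irf1 encodes a transcription factor induced by interferon gamma that switches on antigen presentation genes. In choroid, Irf1 had 195, 161 and 264 CPM in Positive, against 104, 78.0 and 75.4 CPM in Input. In retina, Irf1 had 30.5, 30.9 and 63.6 CPM in Positive, against 7.20, 3.94 and 5.96 CPM in Input. In brain, Irf1 had 89.3, 85.2 and 78.8 CPM in Positive, against 7.61, 7.37 and 6.13 CPM in Input. Positive was above Input without overlap in every tissue. Fitted log2 fold changes of Irf1 were 1.27 ± 0.24 (SE, adjusted p = 0.00138, edgeR) in choroid, 2.87 ± 0.35 (adjusted p = 0.000768) in retina and 3.59 ± 0.099 (adjusted p = 8.25e-10) in brain.

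Irf7, the factor that amplifies the production of type I interferons, took opposite directions. In choroid, Irf7 had 12.8, 12.7 and 14.5 CPM in Positive, against 34.2, 40.7 and 35.4 CPM in Input. In retina, Irf7 had 29.9, 27.2 and 38.1 CPM in Positive, against 17.4, 11.5 and 11.6 CPM in Input. In brain, Irf7 had 27.7, 34.8 and 30.0 CPM in Positive, against 4.83, 2.15 and 3.57 CPM in Input. Choroid Positive was below choroid Input without overlap, and in retina and brain Positive was above. The fitted log2 fold change of Irf7 was -1.45 ± 0.36 (SE, adjusted p = 0.00674, edgeR) in choroid, 1.23 ± 0.20 (adjusted p = 0.00335) in retina and 3.16 ± 0.23 (adjusted p = 8.04e-07) in brain. Choroid Positive libraries held 8 to 34.7 estimated counts of Irf7, so the choroid level rests on few reads.

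Of the effectors, Isg15 encodes a ubiquitin-like protein that is attached to other proteins during an interferon response. In choroid, Isg15 had 15.4, 25.5 and 15.1 CPM in Positive, against 25.7, 37.3 and 15.4 CPM in Input. In retina, Isg15 had 14.6, 15.5 and 31.4 CPM in Positive, against 3.71, 0.515 and 1.27 CPM in Input. In brain, Isg15 had 56.2, 50.7 and 41.3 CPM in Positive, against 4.01, 2.22 and 3.05 CPM in Input. The choroid fractions overlapped, with 16 to 42.5 estimated counts in the Positive libraries, and the others did not. On the log2 scale the fold change of Isg15 was -0.53 ± 0.46 (SE, adjusted p = 0.404, edgeR) in choroid, 3.43 ± 0.62 (adjusted p = 0.00522) in retina and 4.02 ± 0.20 (adjusted p = 4.27e-08) in brain. The retina value was 4.58 (adjusted p = 0.00214) without Retina Input 1, the highest library of its group, and between 2.98 and 3.67 without any other single library.

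Ifit3 encodes a tetratricopeptide repeat protein that works with its relatives against viral RNA. In choroid, Ifit3 had 50.8, 44.6 and 55.7 CPM in Positive, against 164, 181 and 154 CPM in Input. In retina, Ifit3 had 46.5, 55.6 and 109 CPM in Positive, against 16.3, 11.8 and 17.6 CPM in Input. In brain, Ifit3 had 215, 175 and 149 CPM in Positive, against 25.2, 13.3 and 15.2 CPM in Input. As for Irf7, the choroid libraries ran opposite to the others, and no tissue overlapped. The log2 fold change of Ifit3 was -1.70 ± 0.22 (SE, adjusted p = 8.89e-05, edgeR) in choroid, a 3.26-fold lower level in Positive. It was 2.21 ± 0.32 (adjusted p = 0.00189) in retina and 3.34 ± 0.23 (adjusted p = 4.91e-07) in brain.

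Groups without overlap numbered 3 above and 2 below in choroid, 8 above in retina and 7 above in brain. Over all genes such separation was as common as 22.9% above and 26.8% below in choroid, 22.7% above in retina and 40% above in brain. Leaving out Retina Positive 3, the library with the most Cdh5, gave log2 fold changes of 4.10 for Ifitm2, 4.60 for Ifitm3, 3.82 for Bst2, 2.43 for Irf1, 1.08 for Irf7, 2.98 for Isg15 and 1.75 for Ifit3, and the same 7 genes passed. Leaving out Choroid Positive 2, the shallowest library and the other that stood apart, gave -1.43 for Irf7 and -1.64 for Ifit3, with the same 5 genes passing.

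Microglia and macrophage markers, which mark cells that also express interferon-stimulated genes, were read beside these results. In choroid, where Irf7 and Ifit3 fell, 10 of 11 listed markers fell as well (median log2 -2.90), and their summed share of counts was 0.0228 to 0.0315% in Positive libraries and 0.117 to 0.143% in Input. Choroid fibroblast markers fell at 6 of 6, and pigment epithelium and melanocyte markers at 7 of 7. In retina 6 of 8 microglia markers fell, at 0.00338 to 0.00363% of counts in Positive and 0.00641 to 0.00747% in Input. Photoreceptor markers held 2.73 to 4.56% in Retina Positive and 3.37 to 4.10% in Retina Input. Astrocyte and Mueller glia markers held 0.291 to 0.453% and 0.319 to 0.360% in these groups, and neuronal markers 0.426 to 0.582% and 0.564 to 0.594%. Retina Positive was therefore not endothelial RNA alone. In brain 12 of 13 fell and Tmem119 rose, at 0.0156 to 0.0263% in Positive and 0.0451 to 0.0496% in Input. Of 10 markers of other leukocytes, 3 were listed in brain, where Cd79a and Ly6c2 rose and Ptprc fell, at 0.00283 to 0.00329% of counts in Positive and 0.000411 to 0.000452% in Input. Ly6c2 was the 1 listed in retina and rose (log2 6.10), and Ptprc was the 1 listed in choroid and fell (log2 -2.31). Brain fibroblast markers rose at 6 of 6, at 0.150 to 0.226% in Positive and 0.0129 to 0.0140% in Input. No listed marker of these lists was at 0 over a whole group. The background shares were 20.2%, 10.8% and 39.7% of genes lower in choroid, retina and brain, and 16.3%, 15.3% and 38.3% higher. The listing rule holds for markers too, and in choroid 4439 of 7569 genes were listed through Input alone. It favours a fall of such genes, so the marker counts are a description and no support for a direction. The part of these cells in the levels of the 8 genes was not tested.

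Scaled together over 18 libraries and the 7270 genes listed in all tables, Ifitm2, Ifitm3, Irf1 and Bst2 were highest in Choroid Positive, Isg15 and Ifit3 in Brain Positive, and Irf7 and Stat2 in Choroid Input. On this common scale Ifitm3 averaged 667 ± 85.3 CPM in Choroid Positive, 265 ± 34.2 in Choroid Input, 171 ± 59.9 in Retina Positive, 6.49 ± 1.86 in Retina Input, 460 ± 12.2 in Brain Positive and 18 ± 3.86 in Brain Input (SD, n = 3). Ifitm2 averaged 525 ± 106 CPM in Choroid Positive, 243 ± 18.2 in Choroid Input, 41.2 ± 14.9 in Retina Positive, 2.13 ± 0.354 in Retina Input, 245 ± 17.6 in Brain Positive and 12.0 ± 0.472 in Brain Input. The ranges of Brain Positive and Choroid Input overlapped for Ifitm2, and those of Choroid Input and Retina Positive for Ifitm3. Irf1 averaged 222 ± 57.2 CPM in Choroid Positive, 91 ± 17.4 in Choroid Input, 48.0 ± 20.2 in Retina Positive, 7.64 ± 2.20 in Retina Input, 95.4 ± 5.15 in Brain Positive and 8.88 ± 1.05 in Brain Input, with overlap between Brain Positive and Choroid Input and between the Brain and Retina Inputs. Bst2 averaged 253 ± 93.5 CPM in Choroid Positive, 187 ± 10.4 in Choroid Input, 49.2 ± 17.9 in Retina Positive, 3.11 ± 0.824 in Retina Input, 131 ± 13.1 in Brain Positive and 7.65 ± 2.16 in Brain Input, where the 2 choroid groups overlapped.

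The remaining 4 genes had another order on the same scale. Ifit3 averaged 54.1 ± 6.16 CPM in Choroid Positive, 176 ± 11.6 in Choroid Input, 80.9 ± 36.0 in Retina Positive, 20.4 ± 3.99 in Retina Input, 203 ± 35.9 in Brain Positive and 22.6 ± 8.16 in Brain Input. Its neighbours in rank overlapped between Brain Positive and Choroid Input, between Retina Positive and Choroid Positive, and between the Brain and Retina Inputs. Isg15 averaged 20 ± 6.28 CPM in Choroid Positive, 27.6 ± 11.1 in Choroid Input, 23.6 ± 10.0 in Retina Positive, 2.46 ± 2.25 in Retina Input, 55.8 ± 8.05 in Brain Positive and 3.90 ± 1.14 in Brain Input. Brain Positive alone stood clear of its neighbour at the top, and Choroid Input, Retina Positive and Choroid Positive overlapped in turn. Irf7 averaged 14.3 ± 1.11 CPM in Choroid Positive, 38.9 ± 3.03 in Choroid Input, 36.7 ± 5.44 in Retina Positive, 18.1 ± 4.58 in Retina Input, 34.8 ± 3.98 in Brain Positive and 4.44 ± 1.70 in Brain Input. Its 3 highest groups overlapped in turn, and Brain Input was below all others. Stat2 had the narrowest span, with 41.5 ± 23.9 CPM in Choroid Positive, 72.1 ± 11.8 in Choroid Input, 68.9 ± 7.39 in Retina Positive, 65.2 ± 2.43 in Retina Input, 56.9 ± 5.22 in Brain Positive and 56.2 ± 2.71 in Brain Input.

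**Figure D2:**
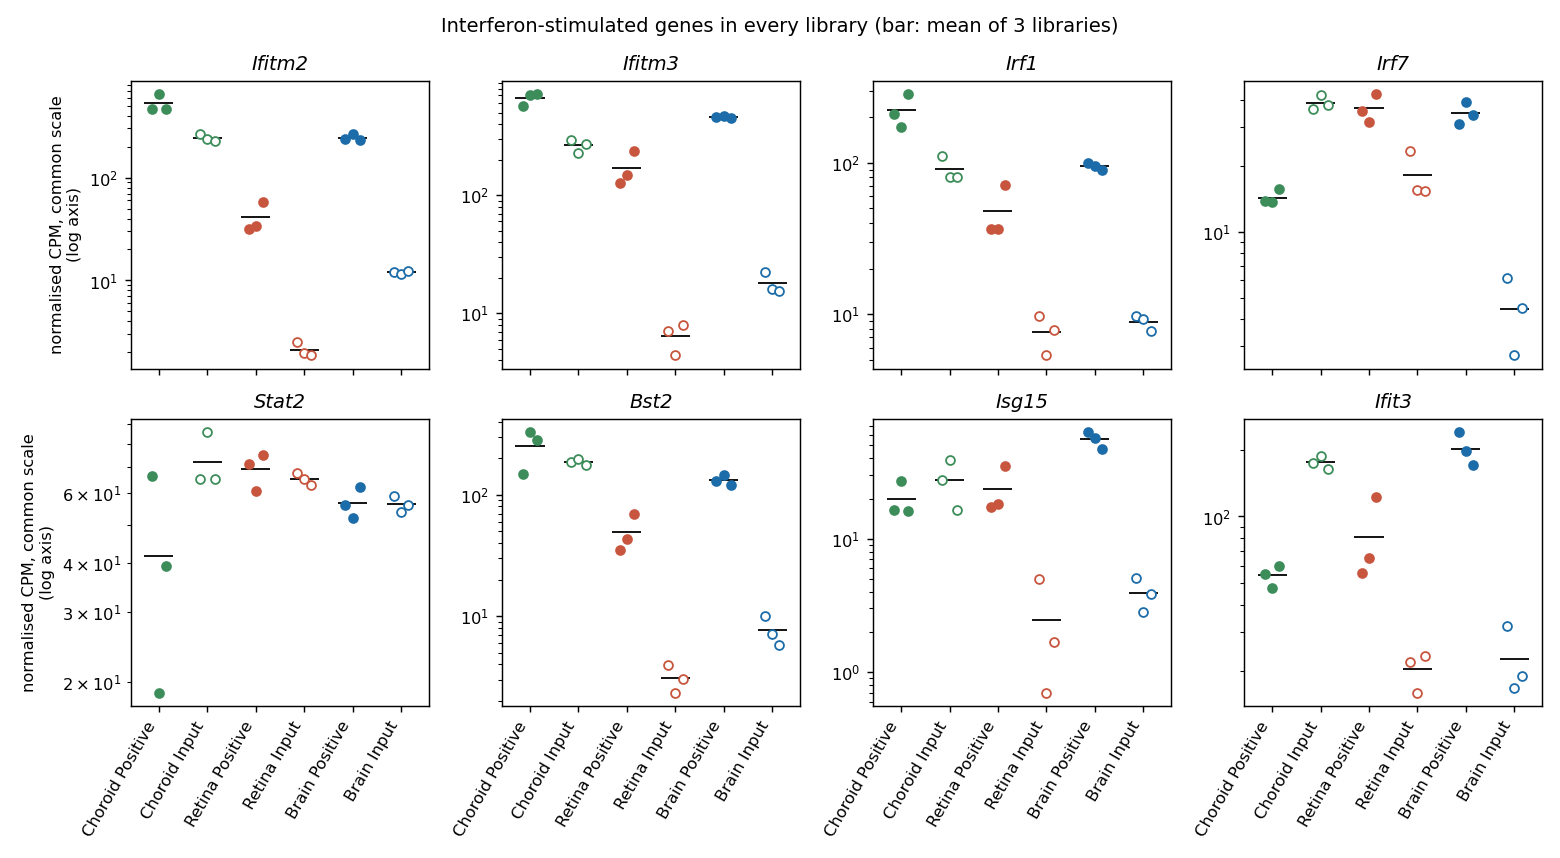
Normalised CPM on the common scale (vertical log axis) of each gene in each of the 18 libraries, one panel a gene, filled points for Positive, open points for Input, bars for the mean of 3 libraries. Retina Positive 3 is the highest retina point for all 8 genes, and the choroid Positive points of Irf7 and Ifit3 lie below the choroid Input points.

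Levels were also taken per kilobase of merged exons, a rough measure for setting different genes side by side. By it the order within the Positive fractions was led by the same 3 membrane proteins. Ifitm3 had 983 ± 126 common-scale CPM per kilobase in Choroid Positive, 253 ± 88.4 in Retina Positive and 679 ± 18 in Brain Positive. Ifitm2 had 801 ± 162 in Choroid Positive, 62.9 ± 22.7 in Retina Positive and 374 ± 26.8 in Brain Positive, and Bst2 had 281 ± 104, 54.5 ± 19.9 and 145 ± 14.5 in the same groups. The regulators Irf7 and Stat2 were lowest on this measure, at 3.80 ± 0.294 and 7.01 ± 4.04 in Choroid Positive, 9.73 ± 1.44 and 11.6 ± 1.25 in Retina Positive, and 9.22 ± 1.06 and 9.59 ± 0.881 in Brain Positive. Irf1 was close to them in Retina Positive, at 12.1 ± 5.07. The merged exons of Irf7 come to 3776 bases over all annotated transcripts, more than its RefSeq span. Its level per kilobase may thus be too low.

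Choroid Positive was then set against Brain Positive in a fit of the 12 libraries of both tissues. Ifitm2, Ifitm3, Irf1 and Bst2 were higher in choroid, by log2 1.21 ± 0.15 (adjusted p = 1.02e-05), 0.65 ± 0.16 (adjusted p = 0.00388), 1.35 ± 0.19 (adjusted p = 3.48e-05) and 1.03 ± 0.25 (adjusted p = 0.00291). Irf7, Isg15 and Ifit3 were lower in choroid, at log2 -1.16 ± 0.29 (adjusted p = 0.00405), -1.48 ± 0.34 (adjusted p = 0.00209) and -1.77 ± 0.23 (adjusted p = 2.12e-05). That is 4 of 8 higher and 3 of 8 lower, beside 28.3% and 26.4% of 7461 genes. Irf7, Isg15 and Ifit3, like Stat2, were listed in choroid through Input alone. The listing rule thus favours a lower Choroid Positive and a higher Choroid Input level for them. Their calls here and in Input are a description and no support for a direction. Stat2 was at -0.20 ± 0.26 (adjusted p = 0.535), and at -0.70 (adjusted p = 0.0336) without Choroid Positive 1. In Choroid Input over Brain Input, 7 of 8 were higher, beside 33.9% of genes, from log2 2.73 for Isg15 to 4.59 for Bst2, and Stat2 was at 0.32 ± 0.24 (adjusted p = 0.254).

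Against Retina Positive, Choroid Positive was higher for the same 4 genes, beside 30.5% of 7313 genes, with log2 3.70 ± 0.25 for Ifitm2 (13.0-fold), 2.00 ± 0.26 for Ifitm3, 2.25 ± 0.31 for Irf1 and 2.38 ± 0.31 for Bst2. Irf7 was lower, at log2 -1.32 ± 0.26 (adjusted p = 0.000621), beside 29.7% of genes lower. Stat2 was at -0.58 (adjusted p = 0.0857), Isg15 at -0.30 (adjusted p = 0.677) and Ifit3 at -0.53 (adjusted p = 0.116). Without Choroid Positive 1 Stat2 passed as lower (-1.09, adjusted p = 0.00347), and without Retina Positive 1 Ifit3 did (-0.75, adjusted p = 0.0303). In Choroid Input over Retina Input 7 of 8 genes were again higher, beside 35.5%, with log2 6.99 ± 0.30 for Ifitm2 and 6.08 ± 0.37 for Bst2 the largest and 1.28 ± 0.22 for Irf7 the smallest of the 7. Isg15 was at 3.57 ± 0.58, and at 4.72 (adjusted p = 1.07e-05) without Retina Input 1, and Stat2 was at 0.32 (adjusted p = 0.287). The listing rule favours a lower Choroid Positive and a higher Choroid Input level for Irf7, Stat2, Isg15 and Ifit3. It favours a lower Retina Input level for Ifitm2, Bst2 and Isg15. Calls in those directions are a description and no support for a direction.

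Retina Positive was lower than Brain Positive for 6 of 8 genes, beside 36.4% of 12438 genes. The log2 fold changes were -2.54 ± 0.21 for Ifitm2, -1.40 ± 0.24 for Ifitm3, -0.96 ± 0.26 for Irf1, -1.39 ± 0.25 for Bst2, -1.20 ± 0.42 for Isg15 and -1.29 ± 0.31 for Ifit3. The Isg15 call (adjusted p = 0.0213) was lost without Retina Positive 1 (0.0745), Retina Positive 2 (0.0576) or Brain Positive 1 (0.0625). Irf7 was at 0.09 ± 0.23 (adjusted p = 0.724). Stat2 was higher at 0.29 ± 0.097 (adjusted p = 0.0156), beside 39.2% of genes higher. That call was lost without Retina Positive 3 (0.19, adjusted p = 0.0677), without Brain Positive 2 (0.23, adjusted p = 0.0702), with DESeq2's size factors (0.20, adjusted p = 0.06), with DESeq2's test (0.20, adjusted p = 0.0599) and with all 18 libraries in 1 fit (0.28, adjusted p = 0.234). In Retina Input over Brain Input, Irf7 was higher at 1.98 ± 0.26 (adjusted p = 1.63e-05), beside 37.8% of genes. Ifitm2, Ifitm3 and Bst2 were lower at -2.55 ± 0.27, -1.55 ± 0.28 and -1.34 ± 0.32, beside 37.8% of genes. For Ifitm2, Bst2 and Isg15 the listing rule favours a lower Retina Input level. Isg15, at -0.65 (adjusted p = 0.268), passed without Retina Input 1 (-1.93, adjusted p = 0.00434). Pan-endothelial markers differed between the pull-downs too, with 11 of 12 higher in Choroid Positive than Brain Positive, 12 of 12 higher in Choroid Positive than Retina Positive, and 6 of 13 lower in Retina Positive than Brain Positive. Their part in the levels of the 8 genes was not tested.

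**Figure D3:**
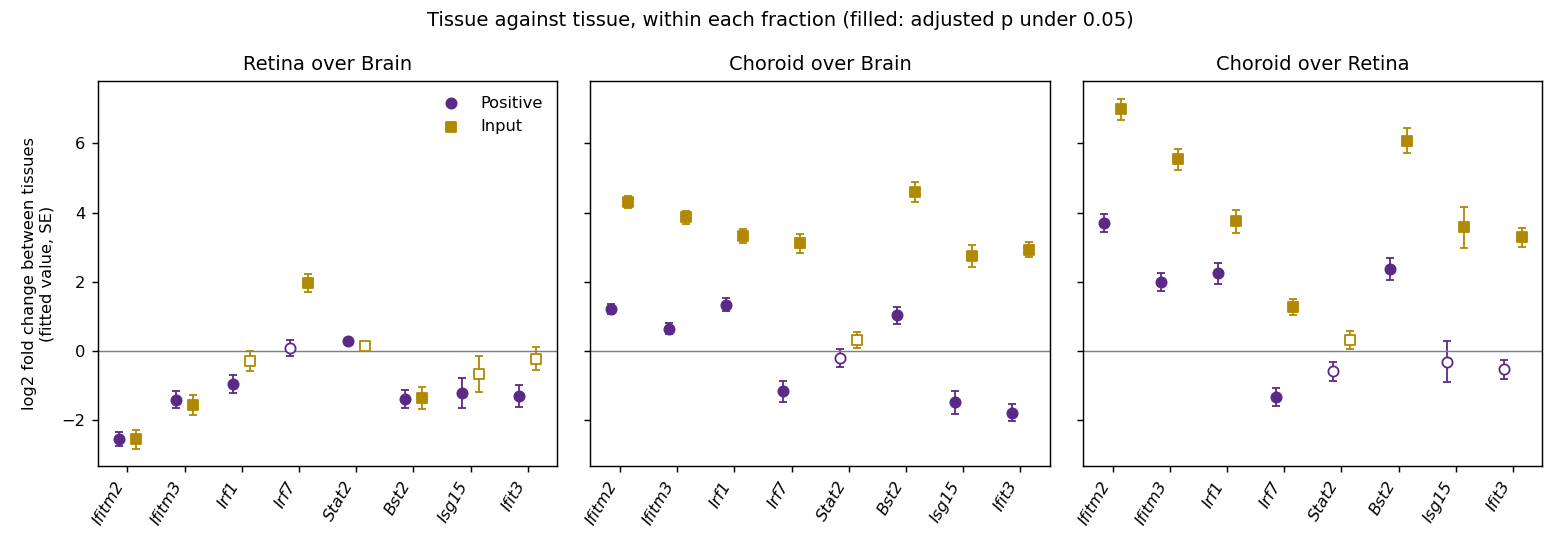
Log2 fold change between tissues (vertical axis, fitted value with its standard error) for each gene, with the Positive fractions as circles and the Input fractions as squares, filled past an adjusted p of 0.05. Against brain and retina, the choroid Input squares lie above the choroid Positive circles for all 8 genes.

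The difference between tissues in Positive over Input was tested as an interaction. It was lower in choroid than in brain for 7 of 8 genes, beside 25.7% of genes, from -4.70 ± 0.32 for Ifit3 (adjusted p = 6.73e-08) to -1.98 ± 0.27 for Irf1 (adjusted p = 3.28e-05), with Stat2 at -0.52 ± 0.35 (adjusted p = 0.241). Stat2 passed without Choroid Positive 1 (-1.02, adjusted p = 0.0153). Between choroid and retina it was lower for the same 7 genes, beside 22.3%, from -3.87 ± 0.81 for Isg15 (-5.02 without Retina Input 1) to -1.50 ± 0.42 for Irf1, with Stat2 at -0.90 ± 0.38 (adjusted p = 0.0867) and at -1.42 (adjusted p = 0.0057) without Choroid Positive 1. Between retina and brain 1 of 8 passed, beside 20% lower: Irf7, at -1.88 ± 0.35 (adjusted p = 0.000846). Ifit3 was at -1.08 ± 0.44 (adjusted p = 0.0624), and it passed with the homogenate as a replicate block (-1.21, adjusted p = 0.00729), without Brain Input 1 (-1.47, adjusted p = 0.0131) and without Retina Positive 3 (-1.47, adjusted p = 0.00167). Irf1 was at -0.67 (adjusted p = 0.172) and passed without Retina Positive 3 (-1.04, adjusted p = 0.00198). These 3 comparisons share libraries with each other. The listing rule favours a negative difference for Irf7, Stat2, Isg15 and Ifit3 in choroid minus brain and in choroid minus retina. In choroid minus retina it does so for Ifitm2 and Bst2 as well. Those calls are a description and no support for a direction. Ifitm3 and Irf1 met the minimum in both fractions of every tissue. The log2 fold change of Cdh5 given earlier was also lowest in choroid, so a lower value there is not particular to these genes. The part of this in the differences was not tested.

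Set against Cdh5 of the same Positive library, a measure chosen after the values were seen and given with no test, 6 of the 8 genes kept a narrow range in retina although Retina Positive 3 stood apart. The ratio of Isg15 to Cdh5 was 0.0700 to 0.0760 in Retina Positive and 0.120 to 0.160 in Brain Positive. Ifitm3 stood at 0.488 to 0.569 in Retina Positive and 1.11 to 1.17 in Brain Positive, and Ifit3 at 0.242 to 0.251 in Retina Positive and 0.431 to 0.612 in Brain Positive. Ifitm2, Ifitm3, Bst2, Irf1, Isg15 and Ifit3 had all Retina Positive ratios below all Brain Positive ratios, beside 16.6% of 12438 genes. The ratios of Irf7 and Stat2 ranged more widely in retina, at 0.0870 to 0.156 and 0.153 to 0.310. All 8 genes had Choroid Positive ratios below Brain Positive ratios, where 91% of 7461 genes did, so that count is near the background. Irf7, Stat2, Isg15 and Ifit3 had all Choroid Positive ratios below all Retina Positive ratios, where 83.2% of 7313 genes did. Among the 8, Ifitm2 had Choroid Positive ratios (0.276 to 0.565) above all Retina Positive ratios (0.119 to 0.138), as 2.72% of 7313 genes did.

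Upstream of the 8 genes, none of 9 interferon ligand genes looked for was listed in any table. Of the receptors and kinases, 3 of 7 listed rose and 1 fell in choroid, 4 of 8 rose in retina and 6 of 8 rose in brain. Ifnar2, the signalling chain of the type I receptor, had a log2 fold change of 0.50 in choroid (adjusted p = 0.103) and rose by 2.70 in retina and 2.71 in brain. Ifnar1, its partner, was at -0.03 in choroid (adjusted p = 0.935) and rose by 0.73 in retina and 1.66 in brain. Ifngr1, the ligand-binding chain for interferon gamma, rose by 1.45 in choroid, and Il10rb, a chain shared by the interferon lambda and interleukin 10 receptors, fell to 89.1 ± 21.8 CPM in Choroid Positive against 222 ± 32.2 CPM in Choroid Input (log2 -1.31). Il10rb rose by 3.48 in retina and 4.01 in brain.

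Among the other STAT and IRF factors, 3 of 7 listed rose and Irf5 fell in choroid, 5 of 6 rose in retina, and 7 of 8 rose in brain while Irf8, a factor of microglia and other myeloid cells, fell. Irf9, which works with Stat2 in the type I interferon complex, rose by 1.43 in retina and 2.40 in brain and was at 0.29 in choroid without passing. Of the sensors of viral nucleic acid and their adaptors, 1 of 4 listed rose in choroid, 5 of 8 in retina and 10 of 12 in brain, where Tbk1 fell. Ifih1 and Ddx58, the cytosolic sensors of double-stranded RNA, rose by 3.01 and 2.50 in retina and 3.45 and 3.02 in brain, and were at 0.28 (adjusted p = 0.569) and 0.72 (adjusted p = 0.0679) in choroid. The choroid member that rose was Trim25, a ubiquitin ligase that activates Ddx58, at 0.63.

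Other targets of type I interferon were listed in differing numbers between tissues. In choroid 5 of 19 listed rose and 3 fell, with a median of 0.33. In retina 22 of 24 rose, with a median of 2.32, and in brain 31 of 34 rose and 3 fell, with a median of 3.52. Ifit1, the close relative of Ifit3, had 9.14, 6.36 and 20.9 CPM in Choroid Positive, against 60.3, 48.6 and 41.2 CPM in Choroid Input (log2 -1.97), and it rose by 3.27 in retina and 4.16 in brain. Ifitm1, the third member of the Ifitm cluster, also fell in choroid, at log2 -1.85, and rose in brain by 4.52. Rsad2, which encodes the antiviral enzyme viperin, rose in all 3 tissues, by 1.49 in choroid, 4.28 in retina and 4.48 in brain. Lgals3bp, a secreted lectin-binding protein, fell by 1.37 on the log2 scale in choroid, and Parp14, Ifi35, Lgals9 and Shisa5 rose there by 0.95, 0.94, 1.09 and 1.37. Rsad2, Lgals3bp, Parp14, Ifi35, Lgals9 and Shisa5 in choroid, and Irf8, Irf9 and Tbk1 above, were named after their values were seen. The largest rises were in Ifi44 and Sp100, a nuclear body protein, at 5.48 and 5.70 in retina, and in Ifi44 and Zbp1, a sensor of Z-form nucleic acid, at 5.07 and 4.86 in brain.

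Targets of interferon gamma rose at 6 of 9 listed in choroid (median 1.02), 13 of 13 in retina (median 3.41) and 14 of 14 in brain (median 4.29). Psmb9 and Psmb8, subunits of the immunoproteasome that cuts peptides for antigen presentation, led in choroid at 1.78 and 1.39. The guanylate-binding protein genes Gbp2 and Gbp3 were at 0.11 (adjusted p = 0.829) and 0.16 (adjusted p = 0.679) in choroid and rose by 3.20 and 4.38 in retina and by 4.81 and 4.74 in brain. Gbp5 led in both other tissues at 4.95 in retina and 4.95 in brain. The enzymes that handle Isg15 rose at 4 of 4 in retina and 4 of 4 in brain, with Usp18, which removes Isg15 and restrains the type I receptor, at 3.04 and 4.84, and Uba7, which activates Isg15, at 2.69 and 3.01. Only Ube2l6, the conjugating enzyme, was listed in choroid, at -0.07 (adjusted p = 0.881). Of the genes that restrain signalling, Ptpn2, a phosphatase acting on Jak and STAT proteins, rose in choroid at 1.03 (1 of 4 listed) and fell in retina at -0.34 (1 of 6 listed). In brain 5 of 8 rose, led by Socs3 at 1.56 and Socs1 at 0.82. Beside these lists stand the background shares of choroid, retina and brain given earlier, 16.3%, 15.3% and 38.3% higher, and 20.2%, 10.8% and 39.7% lower. The listing rule given earlier holds for these lists too, and the genes listed differ between tissues. Their counts and medians are therefore a description and no support for a direction.

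**Figure D4:**
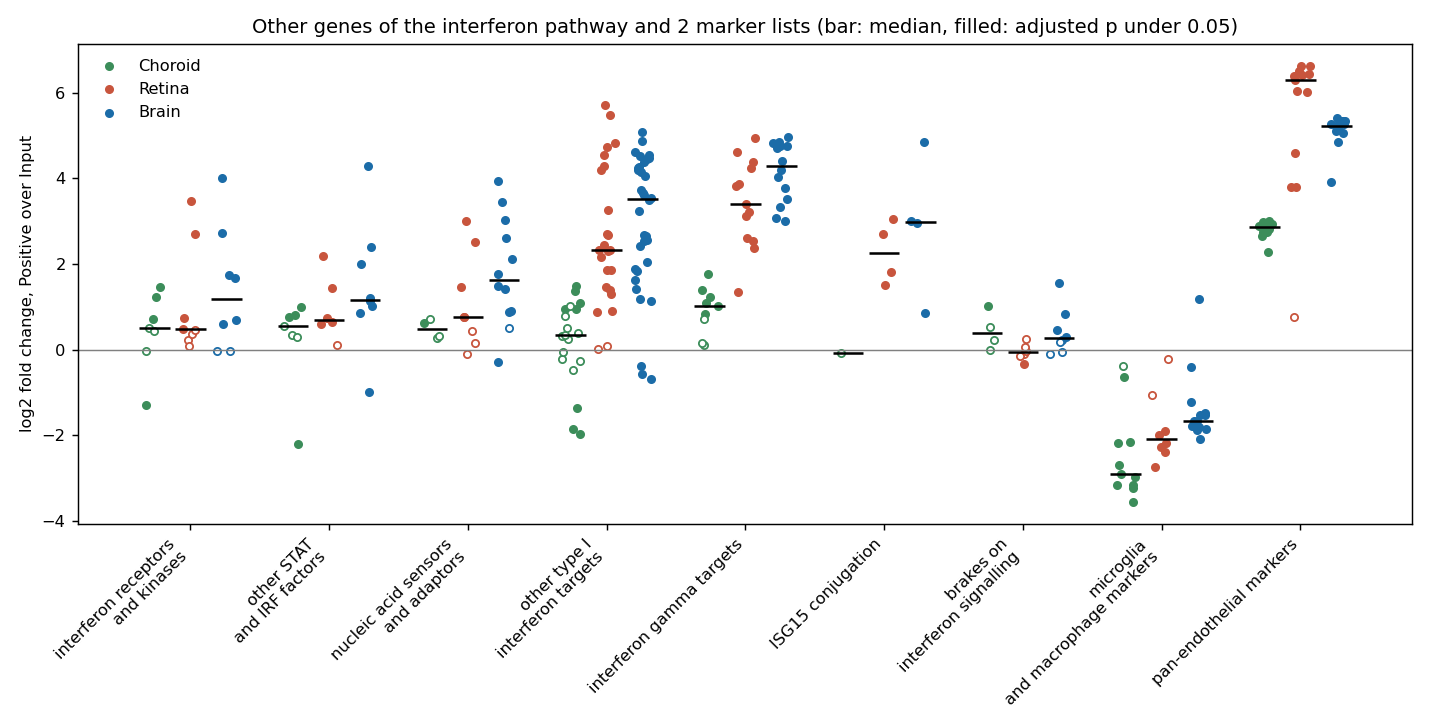
Log2 fold change of Positive over Input (vertical axis) of every listed gene in 7 lists of the interferon pathway and 2 marker lists, coloured by tissue, with bars at the median and filled points past an adjusted p of 0.05. The type I target points of choroid lie on both sides of 0, with a median of 0.33, while the retina and brain medians are 2.32 and 3.52.

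Over the 18 libraries, which fall into 6 groups, the genes whose log2 CPM on the common scale ran most like the members were found by Pearson's r, given as a description. They were Serpinh1 and Cnn2 for Ifitm2 (0.995 and 0.995), Tinagl1 and Lgals9 for Ifitm3 (0.995 and 0.994), Smagp and H2-D1 for Irf1 (0.992 and 0.992), and Crtap and Clec2d for Bst2 (0.987 and 0.986). For Ifit3 they were Ifit1 and Capg (0.959 and 0.952), for Isg15 Pltp and Ly6a (0.949 and 0.949), for Stat2 Ap4b1 and Pik3cb (0.930 and 0.916), and for Irf7 Cpt2 and St6galnac2 (0.900 and 0.888). Among the 8 genes themselves r was highest between Ifitm2 and Bst2 (0.981) and lowest between Ifitm2 and Stat2 (-0.33). The libraries share tissue and fraction, their depth differs between tissues, and the part of depth in these values was not tested.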

How the data were processed

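RNA was measured by sequencing in 18 libraries, Positive and Input fractions of choroid, retina and brain, 3 per group. The deposited tables hold estimated counts per gene for each library, and beside them log2 values normalised by the authors. The submitters' processing notes name DESeq and the mouse build mm10, while no aligner, counting program or strand setting is named there or in the labels. Per the file headers a gene was listed with at least 50 counts, and on the files this held in all libraries of at least 1 fraction, so genes below that limit were not analysed here.

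Estimated counts were rounded to whole numbers, scaled by TMM and tested with edgeR 4.0.16 (R 4.3.3, limma 3.58.1), quasi-likelihood F test, 6 libraries per tissue or 12 per pair of tissues, with Benjamini-Hochberg adjustment over all genes of the table and a threshold of 0.05. The edgeR filter at a minimum count of 10 removed no listed gene. Likeness used log2(CPM + 1). DESeq2 1.42.0 served as an alternative, and the log2 values of the authors gave their scaling factors for an alternative added after the data were seen. On simulated counts with 200 changed genes, 4-fold changes were recovered for 95% in choroid, 100% in retina and 100% in brain, and 2-fold changes for 33%, 80% and 90%. False calls numbered 11, 10 and 16. Far more genes than 200 were called in the data, so the simulation does not test the scaling where many genes differ.

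Positive and Input of the same number come from 1 homogenate per the labels' protocols, which pairs them within a tissue. The main fits left this pairing out, and fits with a replicate block were run as an alternative setting. Their deviations from the group means correlated at -0.0566 to 0.354, above 0.1 in 6 of 9 pairs.

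The 8 genes and the other lists were chosen with earlier results of these data known. The genes named were the 8, of each other list the first 2 measured and the 2 largest changes past the threshold per tissue, and the 2 genes most like each of the 8; exceptions are stated, and 1 gene of the lists is not reported here. Promoters came from RefSeq tables on GRCm38.p6, and merged exon lengths from GENCODE on GRCm38. Figures were drawn with matplotlib 3.10.9 and tables handled with pandas 2.3.3 in Python 3.11.15.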

Additional observations from a re-analysis of the deposited data

Results flagged for a closer look

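The effect of the pull-down, Positive over Input, differed between choroid and each other tissue for 7 of the 8 genes in a test of the difference itself (edgeR interaction, adjusted over all genes). Choroid minus brain, on the log2 scale, was -3.10 for Ifitm2, -3.22 for Ifitm3, -3.56 for Bst2, -1.98 for Irf1, -4.27 for Irf7, -4.21 for Isg15 and -4.70 for Ifit3, beside 25.7% of all genes lower. Choroid minus retina was -3.29 for Ifitm2, -3.54 for Ifitm3, -3.70 for Bst2, -1.50 for Irf1, -2.59 for Irf7, -3.87 for Isg15 and -3.82 for Ifit3, beside 22.3% lower. Retina minus brain was -1.88 for Irf7, the 1 of 8 genes to pass there, beside 20% lower. Irf7 and Ifit3 were higher in Positive than Input in every retina and brain library and lower in every choroid library. In choroid both reached the minimum of 50 counts in Input alone, as Isg15 did, and in retina Ifitm2, Bst2 and Isg15 reached it in Positive alone. The listing rule favours the direction seen for these genes in those tissues, and so a negative choroid minus retina difference for all of them. It also favours a negative choroid minus brain difference for Irf7, Isg15 and Ifit3. Those values are a description and no support for a direction. Cdh5 too had its lowest log2 fold change of Positive over Input in choroid, and the part of this in the differences was not tested.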

How the results depend on the processing

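Over other settings, 1656 of 1714 values of the 8 genes kept direction and side of the threshold, 21 newly passed, 14 no longer passed and 23 changed sign, all of these 23 in results that did not pass. The stricter filter at the median level tests fewer genes and members by construction. It called 1700, 1883 and 5705 genes for Positive over Input in choroid, retina and brain, against 2767, 3352 and 10896, and 0 of the 1 member tested in retina (Stat2) and 3 of 4 in brain. For choroid against brain it called 2265 genes in Positive, 2668 in Input and 1870 for the difference, with 4, 4 and 4 of 4 members. For choroid against retina it called 2400, 2616 and 1181 genes, with 1, 1 and 1 of 1 member. For retina against brain it called 4936, 4895 and 3440 genes, with 3, 1 and 0 of 3 members. Requiring a log2 fold change of at least 1 left 1170 genes in retina and 4607 in brain, 2045 and 2971 for choroid against brain in Positive and Input, 2700 and 3040 for choroid against retina, and 3624, 4039 and 2068 for retina against brain in Positive, Input and the difference. At an adjusted p under 0.01, 1733 genes passed in retina and 1446 for choroid minus retina. With all 18 libraries in 1 fit over genes of all tables, retina against brain gave 4638, 4582 and 2170 genes and 2 members for the difference. The count of members for retina minus brain was also 2 with DESeq2 size factors and 2 with the replicate block per homogenate, where Ifit3 joined Irf7. Leaving out 1 library gave 1836 (without Retina Input 2) to 3637 genes for Positive over Input in retina, with 2048 without Retina Input 1, and 1 to 3 members for retina minus brain.

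Signs changed for Ifitm2 in retina minus brain, at -0.041 with DESeq2 size factors, -0.034 with DESeq2's test, -0.096 with the replicate block and -0.094 with 18 libraries. Over all settings other than the main one, values there ran over -0.29 to 0.26 for Ifitm2, -0.13 to 0.39 for Ifitm3, -0.35 to 0.29 for Bst2 and -0.99 to 0.72 for Isg15. They ran over -0.43 to 0.15 for Ifit3 in Retina Input over Brain Input, -0.069 to 0.18 for Irf7 in Retina Positive over Brain Positive, and -0.50 to 0.12 for Isg15 in Choroid Positive over Retina Positive. Apart from the stricter filter, the cause was not tested. Deviations of same-numbered libraries of different tissues correlated at -0.221 to 0.235, above 0.1 in 11 of 36 pairs. A replicate block across tissues left the counts of members at 7 and 7 for choroid over brain in Positive and Input. They were 5 and 7 for choroid over retina, and 7 and 4 for retina over brain. Depth limits choroid most, where Positive libraries held as few as 8 estimated counts of Irf7.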
